A study of Homo sapiens with 12 samples.

Results

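Treatment with selinexor, an inhibitor of the export receptor XPO1, was followed by lower transcript levels of most ribosome biogenesis genes in 2 acute myeloid leukaemia cell lines, while CAD, the enzyme of the opening steps of pyrimidine synthesis, was higher in both. The 32 genes described here are factors of ribosomal RNA synthesis, processing and preribosome assembly, together with the metabolic enzymes CAD and ODC1. They were picked by symbol from the count tables, which hold 17099 genes for OCI-AML2 and 16820 for MOLM-13. MYC is not among them. The 4 groups were OCI-AML2 cells with 200 nM selinexor, OCI-AML2 cells with DMSO vehicle, MOLM-13 cells with 75 nM selinexor and MOLM-13 cells with DMSO vehicle. All cells were cultured for 36 h with the agent, each group held 3 libraries that the submitters describe as biologically independent, and polyadenylated RNA of whole cells was sequenced without strand information. Each line is a single established line given a single dose, so line and dose cannot be told apart.

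Ribosomes are built in the nucleolus. RNA polymerase I (Pol I) transcribes the ribosomal DNA into a long precursor, small nucleolar ribonucleoproteins (snoRNPs) modify and fold it, and the small subunit processome and the 60S assembly factors cut it and load it with ribosomal proteins. Pre-60S particles leave the nucleus through XPO1 and its adaptor NMD3. MYC is known as an activator of many of these genes, through the E-box letters CACGTG in their promoters.

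Library totals in OCI-AML2 were 8650518 to 9774423 counts with selinexor and 9506571 to 11769061 with vehicle, and those in MOLM-13 were 8114892 to 9711704 with selinexor and 8160133 to 9444344 with vehicle. A count of 3 corresponded to 0.255 to 0.370 CPM (counts scaled to the library total), a floor that covers counting error only. Spearman correlations between libraries of a group lay between 0.986 and 0.990, and 0 pairs of libraries held identical values. Of 10 myeloid markers, 7 (CD33, SPI1, MPO, LYZ, CEBPA, FLT3 and PTPRC) were above 5 CPM in each line, and of the lymphoid markers only NKG7 was. The myeloid markers summed to 11277 to 11553 CPM with selinexor and to 2946 to 3150 CPM with vehicle in OCI-AML2, and to 2989 to 3028 CPM with selinexor and to 1372 to 1387 CPM with vehicle in MOLM-13. Of the erythroid and megakaryocytic markers EPOR and ITGA2B were above 5 CPM in OCI-AML2 and EPOR in MOLM-13, and the list summed to 22.6 to 26.4 CPM with selinexor and 11.7 to 13.6 CPM with vehicle in OCI-AML2. Of the fibroblast and epithelial markers KRT18 and KRT8 were above 5 CPM in MOLM-13, where the list summed to 32.6 to 42.0 CPM with selinexor and 12.2 to 12.6 CPM with vehicle. The lymphoid list summed to 21.0 to 26.3 CPM with selinexor and 14.4 to 15.9 CPM with vehicle in OCI-AML2. In MOLM-13 the lymphoid and the erythroid and megakaryocytic sums overlapped between the groups, as did the fibroblast and epithelial sum in OCI-AML2. The sums that did not overlap moved with the treatment that every comparison here is about, and their part in the results was not tested. In RNA of whole cultures, fewer cells of a type and less RNA per cell cannot be told apart.

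The members together took a smaller share of each library with selinexor. Their share was 0.685% ± 0.0056 of the counts with selinexor and 0.965% ± 0.014 with vehicle in OCI-AML2 (SD, n = 3 each). In MOLM-13 it was 0.791% ± 0.0019 with selinexor and 0.990% ± 0.0013 with vehicle (SD, n = 3 each). The groups did not overlap in either line. The 80 cytosolic ribosomal protein genes, whose products the members assemble, went the other way, with 12.7 to 13.2% of the counts with selinexor and 9.64 to 10.4% with vehicle in OCI-AML2, and 17.7 to 18.02% with selinexor and 13.7 to 14.0% with vehicle in MOLM-13. A share is relative to all other transcripts of the library, so it does not give RNA per cell.

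**Figure D1:**
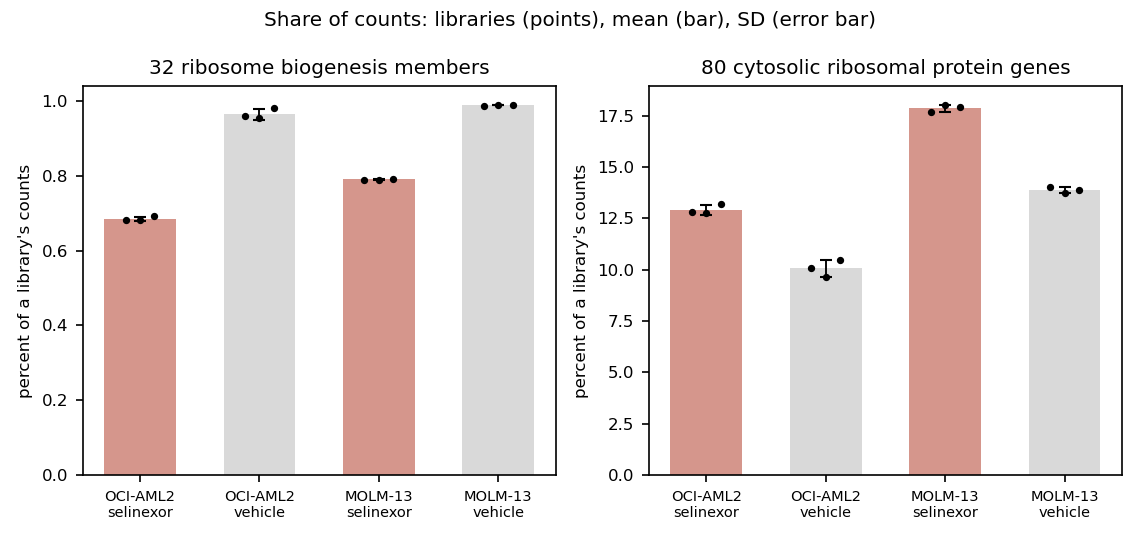
Percent of a library's counts taken by the 32 ribosome biogenesis members (left) and by 80 cytosolic ribosomal protein genes (right). Points are the 3 libraries of a group, bars their mean and error bars the SD; the members' share is 0.685% with selinexor and 0.965% with vehicle in OCI-AML2, while the ribosomal proteins' share is higher with selinexor in both lines.

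With edgeR's quasi-likelihood F test and an adjusted p under 0.05 (Benjamini-Hochberg, over all tested genes), 31 of the 32 members passed the low-count filter and were tested in each line. In OCI-AML2, 28 of them fell and 1 rose, against 63.1% of all tested genes called in either direction, 31.8% that fell and 31.3% that rose. Their median log2 fold change was -0.42, beside a median of -0.00 over all 12086 tested genes. In MOLM-13, 23 members fell and 3 rose, where 63.6% of all tested genes were called, 31.8% as lower and 31.8% as higher, and the median was -0.32 beside 0.01 over 11807 genes. Of the members, 22 fell in both lines, CAD alone rose in both, and MYBBP1A alone was called in opposite directions. The shares of all tested genes with the same call in both lines, or with opposite calls, were not computed. The libraries of the groups did not overlap, with selinexor below vehicle, for 26 members in OCI-AML2 and 23 in MOLM-13, against 33.3% and 32.8% of all tested genes. Among the members that fell, the fitted level with selinexor was 44.4 to 92.0% of the vehicle level in OCI-AML2 and 58.8 to 88.0% in MOLM-13. The members were chosen with earlier results of these data known, so these counts are a description.

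The member not tested was NOP2, an rRNA methyltransferase of the large subunit pathway. It had 1 to 5 counts per library with selinexor and 3 to 6 with vehicle in OCI-AML2, and 5 to 7 with selinexor and 4 to 5 with vehicle in MOLM-13. In GENCODE 29, 54.4% of its exonic bases are shared with AC006064.6, a protein-coding gene on the same strand. Reads from those bases cannot be told apart from reads of the neighbour, and how the authors' counting treated them is not given. The counts may therefore not give the level of NOP2, and whether the overlap accounts for the low counts was not tested. PPAN, NIP7, HEATR1, NOP16, NOP14 and WDR3 also share more than 10% of their exonic bases with a neighbour, between 17.1 and 59.8%. Reads from their shared bases carry the same limit.

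**Figure D2:**
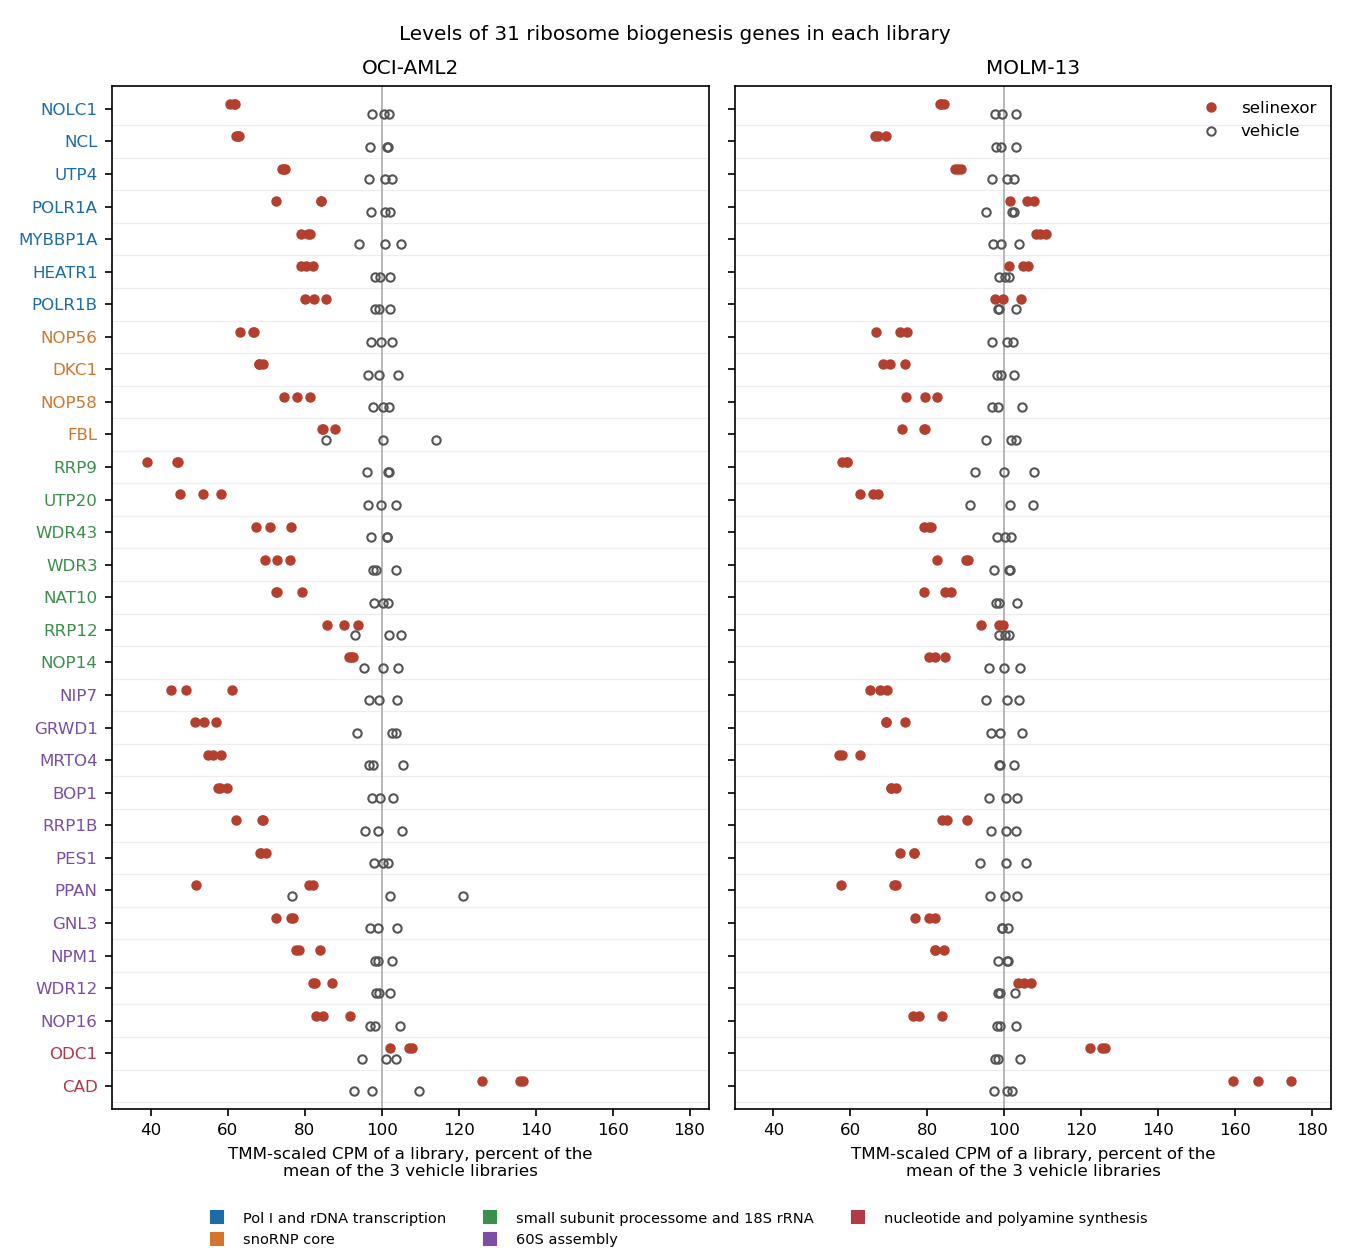
Level of each tested member in every library, as a percent of the mean of the 3 vehicle libraries of the same line (TMM-scaled CPM), with OCI-AML2 on the left and MOLM-13 on the right. Filled points are selinexor libraries and open points vehicle libraries; in OCI-AML2 most selinexor points lie to the left, CAD lies to the right in both panels, and POLR1A, MYBBP1A, HEATR1, POLR1B and WDR12 change sides or overlap in MOLM-13.

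The E-box was searched as CACGTG, which reads the same on both strands, in RefSeq windows of GRCh38.p14 from 250 bases before to 50 after the gene start. Windows were found for 27 members, and 13 of them (48.1%) held the letters, against 8.77% of all 27305 genes with a window and 12.7% of the 9872 tested genes with one. The 14 matches began between 29 bases before and 36 bases after the start, and 9 of them lay after it. The sites of the members whose values stand out below are shown with 10 bases on each side, 5′ to 3′ along the gene, with the E-box in capitals.
RRP9 (chr3:51941894-51941919, minus strand): gttcagctgcCACGTGagttctgcgg
MRTO4 (chr1:19251809-19251834, plus strand): tcttccgccgCACGTGgattcagcgc
UTP20 (chr12:101280085-101280110, plus strand): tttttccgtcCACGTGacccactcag
FBL (chr19:39846358-39846383, minus strand): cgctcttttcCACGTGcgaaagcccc
NOP14 (chr4:2963376-2963401, minus strand): cgcggcccggCACGTGtcttagggta
MYBBP1A (chr17:4555342-4555367, minus strand): ggccggagcaCACGTGtttcgtgttt
ODC1, upstream site (chr2:10448026-10448051, minus strand): gggccccgggCACGTGtgcggcgcgc
ODC1, downstream site (chr2:10447992-10448017, minus strand): cctgcggagaCACGTGgtcgccgagc
Positions here count from the RefSeq start, which can differ from the end of the GENCODE gene given with each member below. The sites belong to genes called lower in both lines (RRP9, MRTO4, UTP20 and NOP14) or in MOLM-13 alone (FBL), to one called in opposite directions (MYBBP1A) and to one called higher in MOLM-13 (ODC1). The 12 tested members with an E-box had a median log2 fold change of -0.42 in OCI-AML2 and -0.32 in MOLM-13, and the 14 with a window and no E-box -0.39 and -0.30. MYC, the factor best known to bind these letters, averaged 736 ± 5.2 CPM with selinexor and 532 ± 10.9 CPM with vehicle in OCI-AML2, and 740 ± 33 CPM with selinexor and 504 ± 14.9 CPM with vehicle in MOLM-13 (SD, n = 3 each). Its transcript rose in both lines (log2 fold change 0.47 ± 0.038 and 0.55 ± 0.034, SE; edgeR adjusted p = 2.0e-14 and 1.7e-28), above vehicle in 3 of 3 libraries each. Other promoter letters, searched on both strands, were found in fewer members: the ETS letters CCGGAAG in 9 (33.3%, against 22.8% of tested genes), the NRF1 motif in 2 (7.41%, against 2.70%) and the YY1 letters AAGATGGC in 2 (7.41%, against 6.75%). A match is a description of the window and does not show that a factor binds there, and letters outside the window were not searched.

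Pol I and its associated factors fell in OCI-AML2 and were mixed in MOLM-13. In OCI-AML2 all 7 members of this role fell (median log2 fold change -0.32), while in MOLM-13 NCL, NOLC1 and UTP4 fell, MYBBP1A rose and the other 3 were not called (median 0.01). Of all tested genes 31.8% fell in OCI-AML2. In MOLM-13 42.9% of the role fell and 14.3% rose, beside 31.8% and 31.8% of all tested genes. NCL encodes nucleolin, an abundant nucleolar RNA-binding protein, and lies at chr2:231453531-231483641. NCL had 1222, 1208 and 1219 CPM in the OCI-AML2 selinexor libraries, against 1975, 1884 and 1978 CPM with vehicle (log2 fold change -0.68 ± 0.038, SE). Its values in MOLM-13 were 1192, 1177 and 1227 CPM with selinexor, against 1827, 1735 and 1761 CPM with vehicle (-0.57 ± 0.030). The fall of NCL was close in size in the lines, and every selinexor library lay below every vehicle library. NOLC1 (chr10:102152176-102163871), a scaffold that binds snoRNPs and Pol I, had 294, 295 and 289 CPM with selinexor and 479.6, 464 and 485 CPM with vehicle in OCI-AML2 (-0.70 ± 0.039). In MOLM-13 NOLC1 had 425, 431 and 426 CPM with selinexor and 507, 526 and 498 CPM with vehicle (-0.26 ± 0.034). It fell in both lines, to 61.4% of the vehicle level in OCI-AML2 and to 83.7% in MOLM-13.

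The catalytic core of Pol I fell in OCI-AML2 and was not called in MOLM-13, where its libraries overlapped. POLR1A (chr2:86020216-86106155), the largest subunit, had 113, 112 and 97.1 CPM with selinexor and 129.7, 136 and 135 CPM with vehicle in OCI-AML2 (-0.32 ± 0.055). In MOLM-13 it had 156, 159 and 149 CPM with selinexor and 140.3, 150.4 and 151 CPM with vehicle (0.07 ± 0.046, edgeR adjusted p = 0.17). POLR1B (chr2:112541915-112577150), which forms the active site with POLR1A, showed the same split. It had 87.9, 82.3 and 84.8 CPM with selinexor and 102, 101 and 105 CPM with vehicle in OCI-AML2 (-0.27 ± 0.056). Its MOLM-13 values were 106, 98.6 and 101 CPM with selinexor and 104, 99.7 and 99.4 CPM with vehicle (0.01 ± 0.054, adjusted p = 0.90). MYBBP1A (chr17:4538897-4555631), a nucleolar protein found with Pol I, was the member with opposite calls. In OCI-AML2 it had 194, 195 and 189.8 CPM with selinexor and 226, 252 and 242 CPM with vehicle (-0.32 ± 0.044, adjusted p = 3.6e-08). In MOLM-13 it had 245, 249 and 243 CPM with selinexor and 218, 233 and 222 CPM with vehicle (0.13 ± 0.040, adjusted p = 0.0032), and the groups did not overlap in either line.

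HEATR1 and UTP4 belong to the part of the small subunit processome that is tied to rDNA transcription. HEATR1 (chr1:236549005-236604504) had 214, 210.3 and 219 CPM with selinexor and 261, 272 and 265 CPM with vehicle in OCI-AML2 (-0.31 ± 0.041). In MOLM-13 HEATR1 had 210.3, 218 and 221 CPM with selinexor and 208, 205 and 210.2 CPM with vehicle (0.06 ± 0.041, adjusted p = 0.21). Its selinexor libraries in MOLM-13 were all above the vehicle libraries by a small margin, and the test did not call them. Upper quartile scaling called HEATR1, POLR1A and WDR12 higher in MOLM-13 (0.13, 0.14 and 0.14). That scaling moved the median of all tested genes there from 0.01 to 0.08. It also moved the share of all tested genes called higher from 31.8% to 36.8%, and the share called lower from 31.8% to 26.9%. HEATR1 shares 23.2% of its exonic bases with LGALS8 on the other strand. UTP4 fell in both lines (-0.42 ± 0.052 and -0.18 ± 0.053), and its call in MOLM-13 was lost under upper quartile scaling (-0.11, adjusted p = 0.0505).

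The snoRNP core fell in both lines, apart from FBL in OCI-AML2. NOP56 and NOP58, the scaffold proteins of the box C/D particles that guide rRNA methylation, changed by -0.61 ± 0.043 and -0.36 ± 0.046 in OCI-AML2 and by -0.48 ± 0.040 and -0.34 ± 0.045 in MOLM-13. DKC1, the pseudouridine synthase of the box H/ACA particles, changed by -0.55 ± 0.042 in OCI-AML2 and by -0.49 ± 0.044 in MOLM-13. FBL (chr19:39834458-39846414) encodes fibrillarin, the methyltransferase of the box C/D particles. It had 672, 728 and 725 CPM with selinexor and 871, 943 and 932 CPM with vehicle in MOLM-13 (-0.37 ± 0.033, adjusted p = 3.5e-18). In OCI-AML2 it had 412, 411 and 427 CPM with selinexor and 488, 416 and 554 CPM with vehicle (-0.22 ± 0.12, adjusted p = 0.17). The selinexor libraries of OCI-AML2 were close together and the vehicle libraries were spread, with the lowest of them inside the selinexor range. The call turned on the vehicle libraries: FBL fell by the same test without vehicle library 2 (-0.33, adjusted p = 5.5e-12) and without vehicle library 3 (-0.12, adjusted p = 0.035).

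Factors of the small subunit and the 18S rRNA held the largest fall of all members. All 7 fell in OCI-AML2 (median log2 fold change -0.46) and 6 of 7 in MOLM-13 (median -0.28), beside 31.8% of all tested genes in each line. RRP9 (chr3:51933430-51941941), a protein of the U3 snoRNP that starts 18S processing, fell most in both lines. It had 26.3, 31.7 and 31.4 CPM with selinexor and 64.7, 68.4 and 68.6 CPM with vehicle in OCI-AML2 (-1.17 ± 0.075, adjusted p = 1.2e-17). RRP9 in MOLM-13 had 51.0, 49.8 and 51.0 CPM with selinexor and 86.1, 92.7 and 79.6 CPM with vehicle (-0.77 ± 0.066, adjusted p = 2.9e-19). RRP9 was thus at 44.4% of the vehicle level in OCI-AML2 and at 58.8% in MOLM-13. The 120 bases around its start, from 100 before to 20 after, hold the E-box (capitals), which begins 5 bases before the RefSeq start.
RRP9 (chr3:51941885-51942004, minus strand): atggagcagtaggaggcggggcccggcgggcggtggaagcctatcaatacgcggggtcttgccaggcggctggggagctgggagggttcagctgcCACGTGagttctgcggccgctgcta

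UTP20 (chr12:101280109-101386616), a large processome component, also fell strongly in both lines. It had 29.7, 33.4 and 36.3 CPM with selinexor and 62.1, 60.1 and 64.6 CPM with vehicle in OCI-AML2 (-0.91 ± 0.075). In MOLM-13 UTP20 had 71.3, 76.6 and 75.1 CPM with selinexor and 122, 116 and 104 CPM with vehicle (-0.61 ± 0.058). WDR43 and WDR3, processome subunits, and NAT10, which acetylates the 18S rRNA, changed by -0.48 ± 0.051, -0.46 ± 0.053 and -0.42 ± 0.049 in OCI-AML2, and by -0.32 ± 0.044, -0.19 ± 0.053 and -0.27 ± 0.045 in MOLM-13. All of these fell, with selinexor below vehicle in every library.

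NOP14 and RRP12 had the smallest changes among the small subunit factors in OCI-AML2, and RRP12 had the smallest in MOLM-13. NOP14 (chr4:2937933-2963385), a processome protein, had 166, 164 and 165 CPM with selinexor and 171, 179.9 and 187 CPM with vehicle in OCI-AML2 (-0.12 ± 0.046, adjusted p = 0.020). In MOLM-13 it had 197, 190.1 and 187 CPM with selinexor and 223, 241 and 232 CPM with vehicle (-0.28 ± 0.042, adjusted p = 4.9e-09). NOP14 was one of 4 members with the larger fall in MOLM-13. RRP12 (chr10:97356358-97426076), which is needed for export of both subunits in yeast, had 125, 115 and 121 CPM with selinexor and 124, 136 and 141 CPM with vehicle in OCI-AML2 (-0.15 ± 0.053, adjusted p = 0.010). Its MOLM-13 values were 184, 186 and 175 CPM with selinexor and 184, 187 and 189 CPM with vehicle (-0.04 ± 0.043, adjusted p = 0.45). The groups of RRP12 overlapped in both lines. The OCI-AML2 calls of NOP14 and RRP12 were lost under upper quartile scaling (-0.07 and -0.10), without OCI-AML2 vehicle library 3 (-0.09 and -0.12) and without OCI-AML2 selinexor library 2 (-0.12 and -0.12), and that of NOP14 also without OCI-AML2 selinexor library 3 (-0.12), with DESeq2 (-0.13) and in the joint fit of 12 libraries (-0.08).

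The 60S assembly factors were the role with the most members. All 11 tested members fell in OCI-AML2 (median log2 fold change -0.54) and 10 of 11 in MOLM-13 (median -0.41), where 31.8% of all tested genes fell in each line. NIP7 (chr16:69337996-69343111), a pre-rRNA processing factor, had 63.7, 58.8 and 79.5 CPM with selinexor and 135, 129 and 126 CPM with vehicle in OCI-AML2 (-0.95 ± 0.088). In MOLM-13 NIP7 had 79.9, 74.7 and 77.9 CPM with selinexor and 119, 109 and 116 CPM with vehicle (-0.57 ± 0.056). GRWD1 (chr19:48445773-48457022), a nucleolar WD-repeat chaperone, stood at 54.2% of the vehicle level in OCI-AML2. GRWD1 had 77.3, 69.9 and 73.0 CPM with selinexor and 139, 140.4 and 127 CPM with vehicle in OCI-AML2 (-0.88 ± 0.057). Its MOLM-13 values were 117, 109 and 109 CPM with selinexor and 152, 155 and 164 CPM with vehicle (-0.50 ± 0.049). MRTO4 (chr1:19251539-19260128) holds the place of the stalk protein P0 on the maturing large subunit. MRTO4 had 106, 99.9 and 102 CPM with selinexor and 176, 192 and 178 CPM with vehicle in OCI-AML2 (-0.82 ± 0.050). MRTO4 in MOLM-13 had 98.0, 96.6 and 106 CPM with selinexor and 174, 168 and 167 CPM with vehicle (-0.76 ± 0.049), a fall within the errors of that of RRP9 in the same line (-0.77 ± 0.066).

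PES1, BOP1 and WDR12 form a complex needed for maturation of the large subunit rRNA, and they did not move alike in MOLM-13. BOP1 had 161, 155 and 156 CPM with selinexor and 268, 262 and 277 CPM with vehicle in OCI-AML2 (-0.78 ± 0.043). In MOLM-13 BOP1 had 268, 273 and 268 CPM with selinexor and 381, 365 and 392 CPM with vehicle (-0.49 ± 0.037). PES1 changed by -0.54 ± 0.044 in OCI-AML2 and by -0.41 ± 0.045 in MOLM-13. WDR12 (chr2:202874782-203014798) had 149, 142 and 141 CPM with selinexor and 175, 170.1 and 169 CPM with vehicle in OCI-AML2 (-0.25 ± 0.047). Its MOLM-13 values were 147, 149 and 151 CPM with selinexor and 139, 145 and 140.0 CPM with vehicle (0.07 ± 0.047, adjusted p = 0.16). BOP1 and PES1 thus fell in both lines, and WDR12 fell in OCI-AML2 and had no call in MOLM-13.

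NPM1 (chr5:171387116-171411137), the nucleolar chaperone nucleophosmin that is often mutated in acute myeloid leukaemia, had one of the smaller falls of its role. NPM1 had 1511, 1529 and 1633 CPM with selinexor and 1924, 1912 and 1997 CPM with vehicle in OCI-AML2 (-0.32 ± 0.039, adjusted p = 1.4e-09). In MOLM-13 it had 1529.9, 1529.7 and 1573 CPM with selinexor and 1881, 1832 and 1880.0 CPM with vehicle (-0.27 ± 0.029, adjusted p = 1.3e-14). The genome holds 45 named pseudogenes of NPM1, and how the authors' counting treated reads that match several of them is not given in the sources used here. GNL3, the nucleolar GTPase nucleostemin, RRP1B, a nucleolar scaffold, and NOP16 changed by -0.41 ± 0.046, -0.59 ± 0.050 and -0.21 ± 0.047 in OCI-AML2 and by -0.32 ± 0.044, -0.21 ± 0.048 and -0.33 ± 0.045 in MOLM-13. PPAN (chr19:10106289-10111634), a 60S factor, had the fewest counts of the 31 tested members. It had 5.43, 8.63 and 8.52 CPM with selinexor and 10.7, 8.05 and 12.7 CPM with vehicle in OCI-AML2 (-0.47 ± 0.18, adjusted p = 0.025). In MOLM-13 PPAN had 17.99, 18.1 and 14.5 CPM with selinexor and 25.3, 24.3 and 26.1 CPM with vehicle (-0.57 ± 0.11, adjusted p = 2.4e-06). The groups overlapped in OCI-AML2, and that call was lost with DESeq2 (adjusted p = 0.081) and without vehicle library 1 (-0.45, adjusted p = 0.053), vehicle library 3 (-0.30, adjusted p = 0.17) or selinexor library 1 (-0.29, adjusted p = 0.18). PPAN shares 59.8% of its exonic bases with P2RY11 and the readthrough gene of both.

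CAD and ODC1 are metabolic enzymes rather than nucleolar proteins, and they were the members that did not fall in either line. CAD (chr2:27217390-27243943) had 186, 187 and 172 CPM with selinexor and 127, 133 and 150.2 CPM with vehicle in OCI-AML2 (0.41 ± 0.052, adjusted p = 1.8e-08). CAD in MOLM-13 had 288, 274 and 263 CPM with selinexor and 166, 169 and 161 CPM with vehicle (0.74 ± 0.042, adjusted p = 6.8e-31). Every selinexor library was above every vehicle library, and CAD reached 133% of the vehicle level in OCI-AML2 and 167% in MOLM-13. ODC1 (chr2:10439968-10448504), the rate-limiting enzyme of polyamine synthesis, had 307, 293 and 309 CPM with selinexor and 272, 290.3 and 298 CPM with vehicle in OCI-AML2 (0.08 ± 0.042, adjusted p = 0.094). Its MOLM-13 values were 293, 286 and 295 CPM with selinexor and 228, 243 and 231 CPM with vehicle (0.32 ± 0.039, adjusted p = 7.3e-12). ODC1 overlapped between the groups in OCI-AML2 and did not in MOLM-13. In OCI-AML2 it was called higher under upper quartile scaling (0.13), in a joint fit of the 12 libraries (0.12) and without vehicle library 3 (0.10). The median of all tested genes in OCI-AML2 was 0.05 under upper quartile scaling, 0.05 in the joint fit and -0.00 as reported. The window of CAD, the gene with the largest rise among the members, holds no CACGTG. It ends 50 bases after the start, and bases beyond it were not searched. The bases of CAD from 100 before to 20 after the start are shown for comparison with RRP9.
CAD (chr2:27217269-27217388, plus strand): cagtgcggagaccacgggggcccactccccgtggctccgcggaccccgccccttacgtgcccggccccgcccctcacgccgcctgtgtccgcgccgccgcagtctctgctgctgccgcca

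Levels of different genes were compared per length, as CPM per kilobase of exonic bases. These are the merged exons of all annotated transcripts of a gene (6929 bases for NCL and 2173 for FBL). They can be longer than the transcript a cell makes, so the order of genes depends on the annotation. NPM1 was highest in both lines, with 407 ± 17.2 CPM per kilobase with selinexor and 508 ± 11.95 with vehicle in OCI-AML2, and 403 ± 6.5 with selinexor and 487 ± 7.3 with vehicle in MOLM-13 (SD, n = 3 each). In the OCI-AML2 selinexor libraries FBL (192 ± 4.1) came next and NCL (176 ± 1.1) after it. With vehicle in OCI-AML2, NCL (281 ± 7.7) stood above FBL (224 ± 32). In MOLM-13 FBL (326 ± 14.5 with selinexor and 421 ± 17.9 with vehicle) stood above NCL (173 ± 3.7 with selinexor and 256 ± 6.8 with vehicle). PPAN was lowest of the 31 tested members in both lines, at 2.91 ± 0.70 with selinexor and 4.06 ± 0.91 with vehicle in OCI-AML2 and at 6.53 ± 0.80 with selinexor and 9.76 ± 0.34 with vehicle in MOLM-13. The order of NPM1 at the top and PPAN at the bottom held in both groups of both lines. PPAN shares 59.8% of its exonic bases with neighbours, so its place carries the limit given above for NOP2.

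The lines were set against each other member by member. Over the 31 tested members the log2 fold changes in OCI-AML2 and MOLM-13 had Pearson's r = 0.84 and Spearman's rho = 0.75, and r = 0.74 over the 29 members other than CAD and ODC1. These are correlations across genes of the same libraries, which are not independent replicates. Only 4 members fell more in MOLM-13. The difference itself was tested by the line-by-treatment interaction in a fit of 12 libraries, where 18 of 31 members were called, against 30.1% of all tested genes. Of these, 16 had the lower log2 fold change in OCI-AML2 and 2 the higher, beside 11.1% of all 12530 genes that were lower and 19% that were higher. The split of all genes depended on scaling, with 14.6% lower and 15.1% higher under upper quartile scaling and 15.8% and 14% with library size alone. The median difference, OCI-AML2 minus MOLM-13, was -0.19 over the members and 0.04 over all genes. Without MOLM-13 vehicle library 2 these medians were -0.29 and -0.05, and without any 1 OCI-AML2 vehicle library the members' median lay between -0.25 and -0.27.

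**Figure D3:**
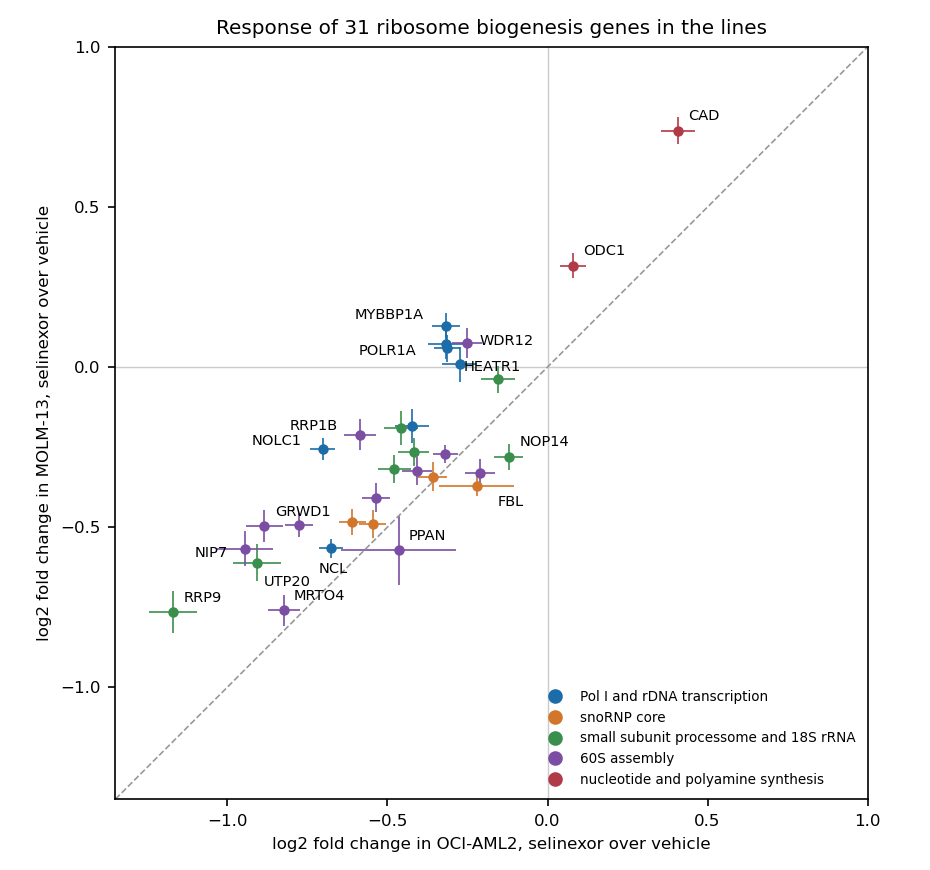
Log2 fold change of each of the 31 tested members in OCI-AML2 (x axis) and in MOLM-13 (y axis), selinexor over vehicle, with bars of ± SE and colours for the role. The dashed line marks equal change; most points lie above it, with RRP9 at -1.17 and -0.77, and CAD at 0.41 and 0.74.

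The difference was called for most Pol I and rDNA transcription factors and for none of the snoRNP core proteins over the full set of libraries, although the roles were not tested against each other. It was called for 30.1% of all tested genes, 11.1% as lower in OCI-AML2 and 19% as higher. Of the 7 Pol I members 6 were called, all lower in OCI-AML2: NOLC1 (-0.40 ± 0.053, edgeR adjusted p = 2.5e-09), MYBBP1A (-0.40 ± 0.060, adjusted p = 9.3e-08), POLR1A (-0.34 ± 0.072), HEATR1 (-0.32 ± 0.059), POLR1B (-0.23 ± 0.077) and UTP4 (-0.19 ± 0.074). NOLC1, MYBBP1A, POLR1A and HEATR1 kept their call under every alternative that was run. NCL, the remaining one, differed by -0.06 ± 0.049 and was not called, but was called lower in OCI-AML2 with library size alone (-0.14) and without OCI-AML2 vehicle library 1, 2 or 3 or MOLM-13 vehicle library 2 (-0.14 to -0.18). In the snoRNP core 0 of 4 were called, with FBL at 0.20 ± 0.13, NOP58 at 0.03 ± 0.066, DKC1 at -0.01 ± 0.062 and NOP56 at -0.08 ± 0.060. Leaving out 1 library changed this for NOP56, called lower without OCI-AML2 vehicle library 1 (-0.17) or 2 (-0.19) or MOLM-13 vehicle library 2 (-0.18), and for FBL, called higher without OCI-AML2 vehicle library 3 (0.21) and at 0.0022 without OCI-AML2 vehicle library 2 (adjusted p = 0.98). Among the small subunit factors RRP9 (-0.35 ± 0.10), UTP20 (-0.25 ± 0.097) and WDR3 (-0.22 ± 0.075) were lower in OCI-AML2 and NOP14 (0.21 ± 0.063) was higher. Among the 60S factors GRWD1 (-0.34 ± 0.076), NIP7 (-0.33 ± 0.098), RRP1B (-0.33 ± 0.070), WDR12 (-0.28 ± 0.066) and BOP1 (-0.23 ± 0.058) were lower, and NOP16 (0.17 ± 0.067) was higher. The calls of NOP14 and NOP16 were both lost with library size alone (0.13 and 0.10), under upper quartile scaling (0.15 and 0.11), with DESeq2 (0.17 and 0.14) and without OCI-AML2 vehicle library 1 (0.09 and 0.06). CAD (-0.28 ± 0.067) and ODC1 (-0.19 ± 0.058) were also lower in OCI-AML2, where their log2 fold changes were 0.41 and 0.08, against 0.74 and 0.32 in MOLM-13. The interaction was scaled over all 12 libraries, so its values are not the plain difference of the fold changes given above.

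**Figure D4:**
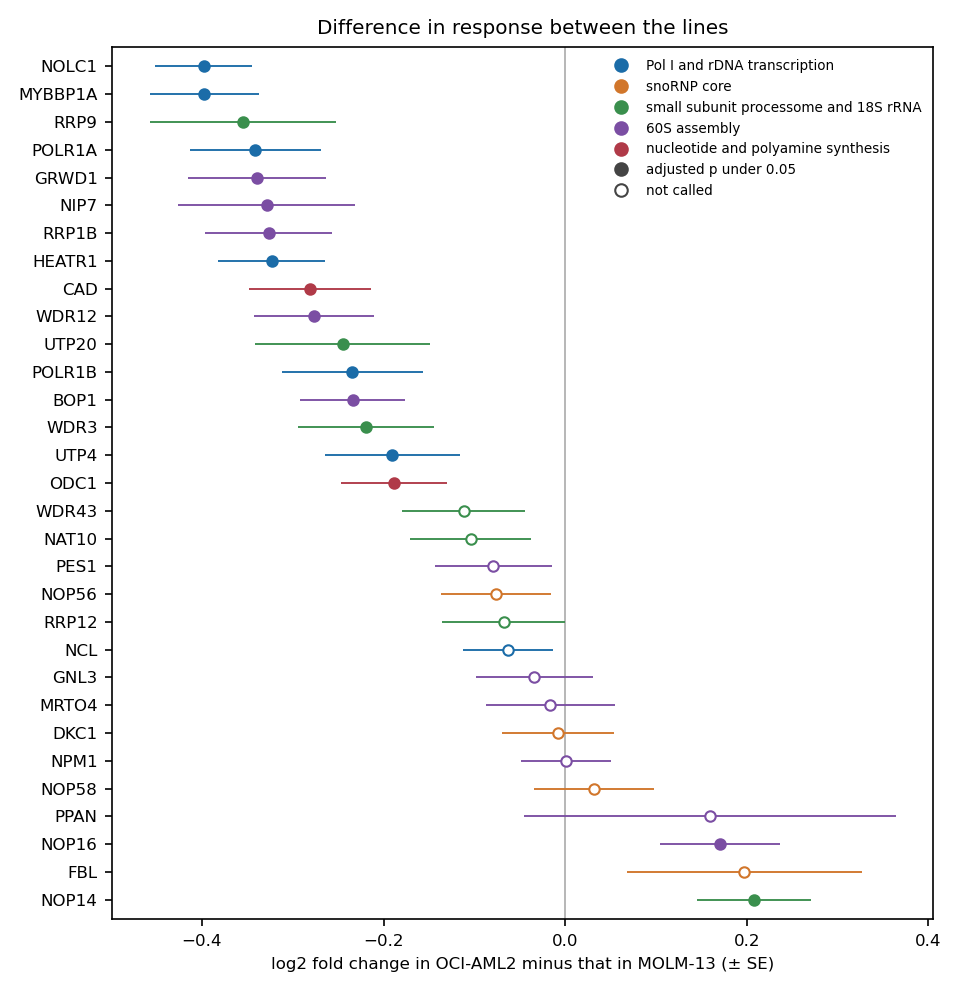
Difference in log2 fold change between the lines, OCI-AML2 minus MOLM-13, for the 31 tested members, with bars of ± SE. Filled points have an adjusted p under 0.05 and open points do not; 16 filled points lie below 0, led by NOLC1 and MYBBP1A at -0.40, and NOP16 and NOP14 lie above it.

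A further 141 genes of the same pathway, none of them a member, were read from 5 lists. The lists, like the members, were chosen with earlier results of these data known, so their shares are a description. In OCI-AML2 109 of 139 tested genes (78.4%) fell and 5 rose, with a median log2 fold change of -0.36. In MOLM-13 95 of 140 (67.9%) fell and 16 rose, with a median of -0.28. The shares that fell over all tested genes were 31.8% in each line, and those that rose were 31.3% in OCI-AML2 and 31.8% in MOLM-13. Of the 13 remaining Pol I genes, 9 fell and 1 (POLR1D, 0.24) rose in OCI-AML2, and 5 (POLR1C, TWISTNB, UBTF, RRN3 and TTF1) fell and 4 (POLR1D, ZNRD1, TAF1C and TAF1D) rose in MOLM-13. The MOLM-13 counts were 38.5% and 30.8% of the list, near the 31.8% and 31.8% of all tested genes. TWISTNB, a Pol I subunit, averaged 53.2 CPM with selinexor and 76.9 CPM with vehicle in OCI-AML2 (-0.53 ± 0.063). RRN3, the initiation factor that recruits Pol I, averaged 73.8 CPM with selinexor and 99.1 CPM with vehicle there (-0.43 ± 0.059). In MOLM-13 UBTF, which binds the rDNA promoter, averaged 232 CPM with selinexor and 295 CPM with vehicle (-0.34 ± 0.039), and POLR1D, a subunit shared by Pol I and Pol III, 225 CPM with selinexor and 177 CPM with vehicle (0.34 ± 0.042).

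Most of the further snoRNP and small subunit genes were called lower in each line, beside 31.8% of all tested genes. Of 13 snoRNP genes 8 fell, 0 rose and 5 were not called in OCI-AML2, and 11 fell, 0 rose and 2 were not called in MOLM-13. TCOF1, the nucleolar phosphoprotein treacle, averaged 98.4 CPM with selinexor and 195 CPM with vehicle in OCI-AML2 (-0.98 ± 0.053), and 139 CPM with selinexor and 205 CPM with vehicle in MOLM-13 (-0.56 ± 0.044). GAR1, an H/ACA core protein, changed by -0.64 ± 0.060 in OCI-AML2, and RUVBL1, an ATPase of snoRNP assembly, by -0.44 ± 0.045 in MOLM-13. Of the small subunit genes 39 of 45 fell and 0 rose in OCI-AML2, and 36 of 46 fell, 2 (RIOK3 and PDCD11) rose and 8 were not called in MOLM-13. PNO1, which holds the 3′ end of the 18S precursor, averaged 32.3 CPM with selinexor and 65.9 CPM with vehicle in OCI-AML2 (-1.03 ± 0.074), and 38.1 CPM with selinexor and 70.4 CPM with vehicle in MOLM-13 (-0.88 ± 0.073). TSR1 changed by -0.73 ± 0.049 in OCI-AML2 and IMP4 by -0.75 ± 0.055 in MOLM-13.

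Most further 60S and exosome genes were called lower in each line, beside 31.8% of all tested genes. Of 50 further 60S genes 39 fell and 3 (NOP53, EFL1 and RSL24D1) rose in OCI-AML2, and 30 fell, 9 rose and 11 were not called in MOLM-13. DDX21, a nucleolar RNA helicase, averaged 308 CPM with selinexor and 705 CPM with vehicle in OCI-AML2 (-1.19 ± 0.040), and 626 CPM with selinexor and 979 CPM with vehicle in MOLM-13 (-0.65 ± 0.032). NOP53, which brings the exosome to pre-60S particles, went the other way, with 585 CPM with selinexor and 340 CPM with vehicle in OCI-AML2 (0.78 ± 0.041), and 1041 CPM with selinexor and 629 CPM with vehicle in MOLM-13 (0.73 ± 0.032). Of 18 genes of the exosome and of rRNA trimming 14 fell and 1 (EXOSC5, 0.33) rose in OCI-AML2, and 13 fell and 1 (EXOSC5, 0.28) rose in MOLM-13. EXOSC9, a subunit of the exosome ring, averaged 42.8 CPM with selinexor and 84.9 CPM with vehicle in OCI-AML2 (-0.99 ± 0.072), and 35.2 CPM with selinexor and 79.6 CPM with vehicle in MOLM-13 (-1.18 ± 0.071). ISG20L2 changed by -0.45 ± 0.056 in OCI-AML2 and EXOSC8 by -0.90 ± 0.060 in MOLM-13. In the interaction test 32 of 140 further genes were lower and 5 higher in OCI-AML2, with a median difference of -0.07, against 11.1% of all tested genes that were lower, 19% that were higher and a median of 0.04; with library size alone 15.8% of all genes were lower and 14% higher.

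**Figure D5:**
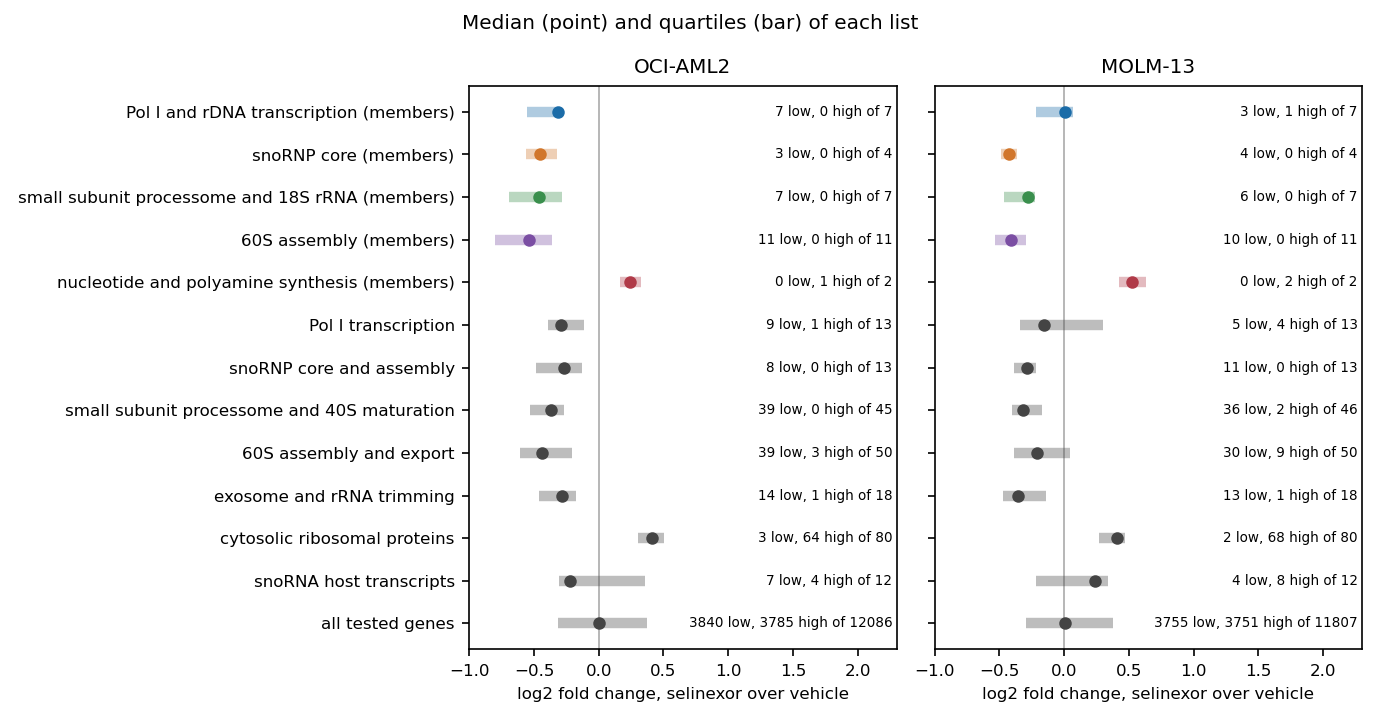
Median log2 fold change, selinexor over vehicle (point), and quartiles (bar) of each member role and each further list, with OCI-AML2 on the left and MOLM-13 on the right; the counts at the right of each panel are the genes called lower and higher of those tested. The medians of the biogenesis lists lie below 0, except that of the Pol I members in MOLM-13, which equals the median of all tested genes to 2 decimals (0.01), and those of the nucleotide and polyamine enzymes; the ribosomal proteins lie above 0 at 0.41 and 0.40.

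Most ribosomal protein genes were called higher, beside 31.3% of all tested genes in OCI-AML2 and 31.8% in MOLM-13. Of 80 genes 64 rose, 3 (RPS10, RPS26 and RPSA) fell and 13 were not called in OCI-AML2 (median log2 fold change 0.41), and 68 rose, 2 (RPS26 and RPL36AL) fell and 10 were not called in MOLM-13 (median 0.40). RPL13 averaged 3169 CPM with selinexor and 2077 CPM with vehicle in OCI-AML2 (0.61 ± 0.039), and RPS6 averaged 2914 CPM with selinexor and 1969 CPM with vehicle (0.57 ± 0.038). In MOLM-13 RPS3A averaged 2488 CPM with selinexor and 1625 CPM with vehicle (0.61 ± 0.029), and RPS18 averaged 7649 CPM with selinexor and 5126 CPM with vehicle (0.58 ± 0.026). Many ribosomal protein genes have near-identical pseudogenes that can share reads.

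Gene structure was set beside the responses as a description. Inside 8 tested members lie 26 snoRNA genes, most of them inside GNL3 (6), NOP56 (5) and NOP58 (4). The 8 hosts had a median log2 fold change of -0.47 in OCI-AML2 and -0.41 in MOLM-13, and the other 23 tested members -0.42 and -0.27. With the log2 of exonic length, the members' log2 fold changes had r = 0.20 in OCI-AML2 and r = 0.47 in MOLM-13 (0.59 without CAD and ODC1), where all tested genes had r = -0.04 and r = 0.08. These points share the same libraries and carry no test.

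In the authors' deposited table, which covers MOLM-13 and runs from vehicle over selinexor, the log2 fold changes of 30 of the 31 members had the opposite sign to those computed here, as its direction requires. The exception was POLR1B, near 0 in both. In the authors' deposited table RRP9 was at 0.78 and CAD at -0.73, and over the 31 members the sum of the authors' value and the value computed here was at most 0.0157.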

How the data were processed

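Per the submitters' processing notes, STAR, the build hg38, R 3.6.1 and DESeq2 were used; no counting tool or annotation is named in these notes or in the labels. For each line the authors deposited whole-number counts by gene symbol and library, and a table of log2 fold changes for MOLM-13, used only for comparison. The deposited columns name the treatment and no replicate, so library numbers only name a library. Deposited normalized values were not used.

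Log2 fold changes with standard errors were computed here from those counts in R 4.3.3 with edgeR 4.0.16 (TMM, filterByExpr with minimum count 10 and minimum total 15, robust quasi-likelihood F tests, Benjamini-Hochberg adjustment over all tested genes), each line alone, and the interaction over the 12 libraries on genes in both tables. The filter removed genes with 0.0996% (OCI-AML2) and 0.109% (MOLM-13) of all counts. TMM-scaled CPM were made per line, so levels are comparable only within it. The p-values measure the spread between libraries described as biologically independent. The procedure was tested on simulated data.

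Positions are from GENCODE 29 on GRCh38, and promoter windows and sequences from RefSeq (GRCh38.p14); NOP58, RRP12, NOLC1, BOP1 and RRP1B had no window. The members and lists were chosen with earlier results of these data known. Library values are given for the 6 members per line with the largest called change, those that rose, those without a call in a line, the 5 largest differences between lines, and the most abundant of each role; of each further list the 2 smallest p per line, and every called member of a direction with 5 or fewer. Alternatives were DESeq2 size factors, upper quartile scaling, library size alone, no filter, DESeq2 1.42.0, limma voom (3.58.1), thinning, a joint fit and leaving out each library.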

Additional observations from a re-analysis of the deposited data

Results flagged for a closer look

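The response of 18 members differed between the lines by the interaction of line and treatment (edgeR's quasi-likelihood test, adjusted p under 0.05), and line and dose cannot be told apart. Of all 12530 tested genes 30.1% were called, 11.1% as lower in OCI-AML2 and 19% as higher. The differences in log2 fold change, OCI-AML2 minus MOLM-13, were -0.40 for NOLC1, -0.40 for MYBBP1A, -0.34 for POLR1A, -0.32 for HEATR1, -0.23 for POLR1B and -0.19 for UTP4 among the Pol I and rDNA transcription factors. They were -0.35 for RRP9, -0.25 for UTP20 and -0.22 for WDR3 among the small subunit factors, where NOP14 stood at 0.21. Among the 60S factors they were -0.34 for GRWD1, -0.33 for NIP7, -0.33 for RRP1B, -0.28 for WDR12 and -0.23 for BOP1, with NOP16 at 0.17. For the enzymes they were -0.28 for CAD and -0.19 for ODC1. MYBBP1A is the one with calls in opposite directions, lower with selinexor in OCI-AML2 and higher with selinexor in MOLM-13.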

How the results depend on the processing

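No member's call changed direction under any alternative that was run. Of the falls, 25 of 28 in OCI-AML2 (not NOP14, PPAN and RRP12) and 22 of 23 in MOLM-13 (not UTP4) kept their call under every alternative, as did the rises of CAD in both lines and of ODC1 and MYBBP1A in MOLM-13. The shares of all called genes that kept their call, in a line or in the interaction, were not computed. Members called higher in OCI-AML2 were 2 under upper quartile scaling and in the joint fit, and in MOLM-13 6 under upper quartile scaling. Of all tested genes, 35.1% and 33.5% were then called higher in OCI-AML2, against 31.3% as reported. In MOLM-13 36.8% of all tested genes were, against 31.8% as reported. Leaving out each library in turn gave 26 to 29 members lower and 1 to 2 higher in OCI-AML2 (2 without vehicle library 3), 23 lower and 3 higher in MOLM-13, and 14 to 22 members with a different response between the lines. Of all tested genes, 28.8 to 31% were then lower and 28.8 to 30.7% higher in OCI-AML2. In MOLM-13 29.6 to 30.7% were lower and 29.3 to 30.2% higher. In the interaction 9.68 to 16.4% of all tested genes were lower in OCI-AML2 and 11.4 to 17.6% higher. Of the differences, 12 of the 16 lower in OCI-AML2 kept their call under every alternative. POLR1B lost it after thinning (-0.17, adjusted p = 0.0995) and without MOLM-13 selinexor library 1 (-0.21), UTP20 with DESeq2 (-0.28, adjusted p = 0.062) and UTP4 without the filter (-0.19, adjusted p = 0.064); UTP20 also lost it without OCI-AML2 selinexor library 1 or 2 or MOLM-13 vehicle library 3 or selinexor library 2 or 3 (-0.18 to -0.25), UTP4 without any 1 OCI-AML2 selinexor library, MOLM-13 vehicle library 1 or selinexor library 1 or 2 (-0.17 to -0.20), and WDR3 without OCI-AML2 selinexor library 3 or MOLM-13 vehicle library 3 or selinexor library 1 or 3 (-0.19 to -0.20). NOP14 and NOP16 lost theirs without any 1 OCI-AML2 vehicle library or MOLM-13 vehicle library 2 (0.06 to 0.15), and NOP16 also without OCI-AML2 selinexor library 3, MOLM-13 vehicle library 1 or selinexor library 1 or 3 (0.12 to 0.16). NAT10 and WDR43 gained a call without any 1 OCI-AML2 vehicle library or MOLM-13 vehicle library 2 and with library size alone (-0.18 to -0.22), PES1 without OCI-AML2 vehicle library 1 or MOLM-13 vehicle library 2 (-0.18 and -0.21) and RRP12 without OCI-AML2 vehicle library 1 (-0.21). The difference of ODC1 moved to -0.32 without OCI-AML2 vehicle library 1 and to -0.31 without MOLM-13 vehicle library 2, and that of UTP4 to -0.31 without OCI-AML2 vehicle library 2 and to -0.29 without MOLM-13 vehicle library 2. The cause was not tested. The median difference over all genes lay at 0.04 as reported and at -0.05 without MOLM-13 vehicle library 2 or any 1 OCI-AML2 vehicle library. Low counts limit the precision for PPAN, and NOP2 was not tested. No paired analysis was possible because the columns carry no replicate numbers.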

Other observations

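Host transcripts of snoRNAs, long RNAs whose introns carry the guides used by the snoRNPs, were called in both directions. Of 12 tested in each line, 7 fell and 4 (GAS5, SNHG5, SNHG6 and SNHG8) rose in OCI-AML2, and 4 (SNHG1, SNHG7, SNHG16 and SNHG17) fell and 8 rose in MOLM-13. Of all tested genes, 31.8% fell and 31.3% rose in OCI-AML2 and 31.8% fell and 31.8% rose in MOLM-13, and the 33.3% of the list that rose in OCI-AML2 and the 33.3% that fell in MOLM-13 are near those shares. GAS5 averaged 393 CPM with selinexor and 310 CPM with vehicle in OCI-AML2 (log2 fold change 0.34 ± 0.042), and 807 CPM with selinexor and 549.7 CPM with vehicle in MOLM-13 (0.55 ± 0.032). SNHG1 averaged 46.4 CPM with selinexor and 95.5 CPM with vehicle in OCI-AML2 (-1.04 ± 0.066) and changed by -0.35 in MOLM-13. SNHG8 averaged 188 CPM with selinexor and 128 CPM with vehicle in MOLM-13 (0.56 ± 0.045). The median over the list was -0.22 in OCI-AML2 and 0.24 in MOLM-13, and the difference between the lines was not tested for the list.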
